A study of Mus musculus with 62 samples.

Results

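The comparison set brown adipose tissue of mice carrying a melanoma that does not cause wasting against the same tissue of mock-injected mice, with the 4 time points pooled. Its members were the 20 libraries labelled NCAC (non-cachectic melanoma cells) and the 20 labelled Con (mock injection), 40 of the 62 libraries of the series. They were chosen by the arm given in the sample labels. Each arm held 5 libraries at each of 2, 4, 6 and 8 weeks after injection, labelled as biological replicates. The remaining 22 libraries came from mice given cachectic melanoma cells (CAC) and serve here as a scale. All mice were female and 2 months old, and every arm was sampled at the same 4 times. The sample labels give the strain as C57BL6/J, while the series text gives NCI Ath/nude mice, and the extraction text speaks of another tumour model at another time. At 4 weeks the titles of a Con and a CAC library carry the same sample number. The labels name neither the individual melanoma lines nor their number, so an arm may be a single cell line. Where nothing says that libraries came from separate cages or injection days, p-values measure only the spread between these libraries.

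Brown adipose tissue burns fatty acids and glucose to make heat, through the uncoupling protein Ucp1 of its mitochondria. Tumours that cause cachexia, the loss of fat and muscle in cancer, can act on distant fat through circulating cytokines, hormones and reduced food intake, and a tumour that causes no wasting serves as a comparison for tumour burden. The pooled comparison asked for small differences shared by all 4 weeks that 5 libraries against 5 could miss.

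Transcripts of the mitochondrial genome took most of the TPM total and so set the scale for all others. Their share was 58.1% ± 3.17 in NCAC and 58.2% ± 6.98 in Con (n = 20 each), a within-week difference of -0.15 percentage points (permutation test, 2-sided, p = 0.925). Con libraries 3 and 4 of 4 weeks held 39.6% and 39.7% and stood apart from the rest. Without them the difference was -1.99 percentage points (permutation test, p = 0.0323). Both are Con libraries singled out by this same share, so leaving them out raises the Con mean. That p is therefore no test of a difference in share. In the fit without them, with the weeks pooled, 0 genes were called and 1992 (15.8%) had an unadjusted p under 0.05. The exact permutation p within weeks was 0.802, 0.349, 0.190 and 0.0714, for differences of 0.31, 6.52, -4.38 and -3.04. The depth of the libraries is unknown, since TPM keeps no counts.

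No gene passed the test for a difference between NCAC and Con with the weeks pooled. Values were taken as log2(TPM + 1), where TPM is the length-corrected share of a transcript in its library, and NCAC and Con were compared within weeks with limma. Of 12581 genes tested 0 (0%) had a Benjamini-Hochberg adjusted p under 0.05, and the lowest adjusted p was 0.394. At an unadjusted p under 0.05 stood 620 genes (4.93%), of which 381 (3.03%) were higher and 239 (1.9%) lower in NCAC. After median-of-ratios rescaling the same limit held 1185 genes, of which 495 were higher, so the split by direction depended on the scaling. The median standard error was 0.064 on the log2 scale, against 0.124 at a single week. The 95% interval of the difference lay within 0.5 of 0 on either side for 11908 genes (94.7%) and within 1 for 12459 (99.0%). At single weeks the interval lay within 0.5 for between 8412 and 9662 genes. The difference itself reached 0.5 in size for 48 genes and 1 for 8 genes, and the median over all genes was 0.02.

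The cachectic arm showed the scale on which brown fat responded in the same series. In a fit of all 62 libraries 5961 genes (47.4%) were called for CAC against Con over the 4 weeks, and 5283 (42%) for CAC against NCAC. Of these 5490 and 4774 were higher in CAC, and the medians over all genes were 0.13 and 0.11. The mitochondrial share that sets the scale was 54.6% to 57.7% in CAC and 56.4% to 59.1% in Con at 2 weeks. At 8 weeks it was 44.3% to 55.6% in CAC and 59.9% to 65.5% in Con. The part of this share in the counts was not tested. The CAC and NCAC differences from Con share the Con libraries, so they stand here side by side as values only. The 140 genes called higher in CAC than in Con by at least 1 log2 unit had a median difference of 1.22 in CAC and 0.14 in NCAC. Their NCAC differences ran from -0.27 to 0.65, and none was called. At an unadjusted p under 0.05 stood 18 of the 140, beside 4.93% of all genes, in a comparison with the same Con libraries that chose them. For 128 of the 140 the 95% interval lay within 1 of 0, beside 99.0% of all genes. The 5 genes called lower in CAC by that margin had a median of -1.17 in CAC and 0.36 in NCAC, and for 0 of the 5 did the NCAC interval lie within 1 of 0.

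**Figure D1:**
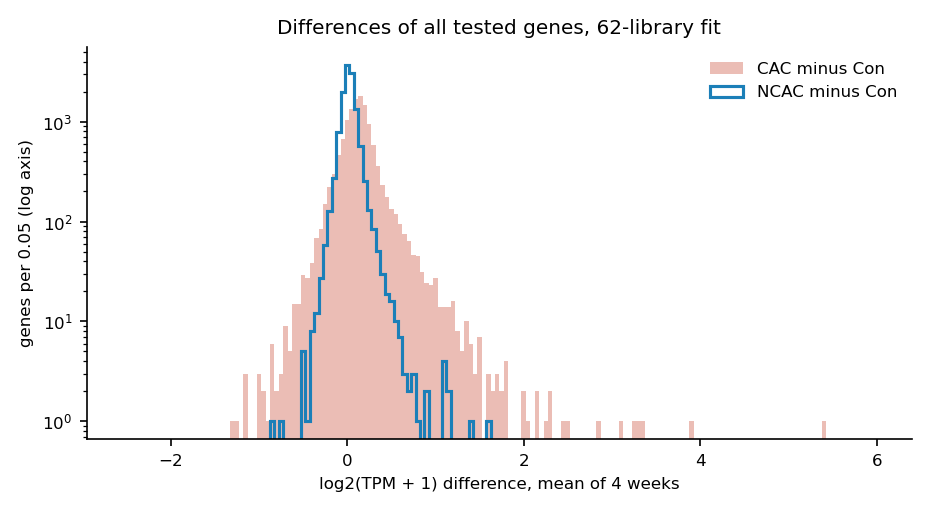
Number of genes (log axis) by log2(TPM + 1) difference, mean of the 4 within-week differences, for CAC minus Con (filled) and NCAC minus Con (line) in the fit of all 62 libraries. Over 12581 genes the median is 0.02 for NCAC and 0.13 for CAC. The difference is at least 1 in size for 8 genes in NCAC and 147 in CAC, where it reaches 5.42 for Itih4.

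Acute phase genes made the contrast between the tumours plainest. Itih4, a plasma protein of the acute phase response (chromosome 14, 30886476 to 30902353 in mm10), ran from 0.343 to 2.62 TPM in NCAC with a median of 1.25, and from 0.366 to 2.24 TPM in Con with a median of 1.48. The arms overlapped over nearly their whole ranges, and the pooled difference was -0.07 (SE 0.10). The CAC mean was 412 TPM, 5.49 log2 units above NCAC (adjusted p = 3.6e-19, limma). Haptoglobin Hp, which binds free haemoglobin, averaged 240 ± 95.5 TPM in NCAC and 230 ± 113 TPM in Con (SD, n = 20 each), a difference of 0.10 (SE 0.17) against 3.36 for CAC minus Con. Complement C4b differed by 0.14 (SE 0.15) in NCAC and 3.92 in CAC, and the B-cell chemokine Cxcl13 by -0.01 (SE 0.21) and 3.1. The protease inhibitor Serpina3n stood at 17.05 ± 7.29 TPM in NCAC and 12.3 ± 4.73 TPM in Con, a difference of 0.41 (SE 0.18, unadjusted p = 0.028) against 3.30 in CAC. Over the 29 tested genes of the acute phase and IL-6/STAT3 list none was called, and the median was 0.01 against 0.02 over all genes. Of the 29 genes 3 had an unadjusted p under 0.05 (2 on the higher side). The lowest was that of Steap4, at 0.27 (SE 0.10, unadjusted p = 0.0093, limma) and on the higher side in all 4 weeks. Differences in the list ran from -0.27 to 0.54, the highest being that of Lcn2 (SE 0.38), whose interval did not exclude 0. C4b has the near copy C4a and Serpina3n belongs to a large family of close copies, so reads may be shared among them.

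**Figure D2:**
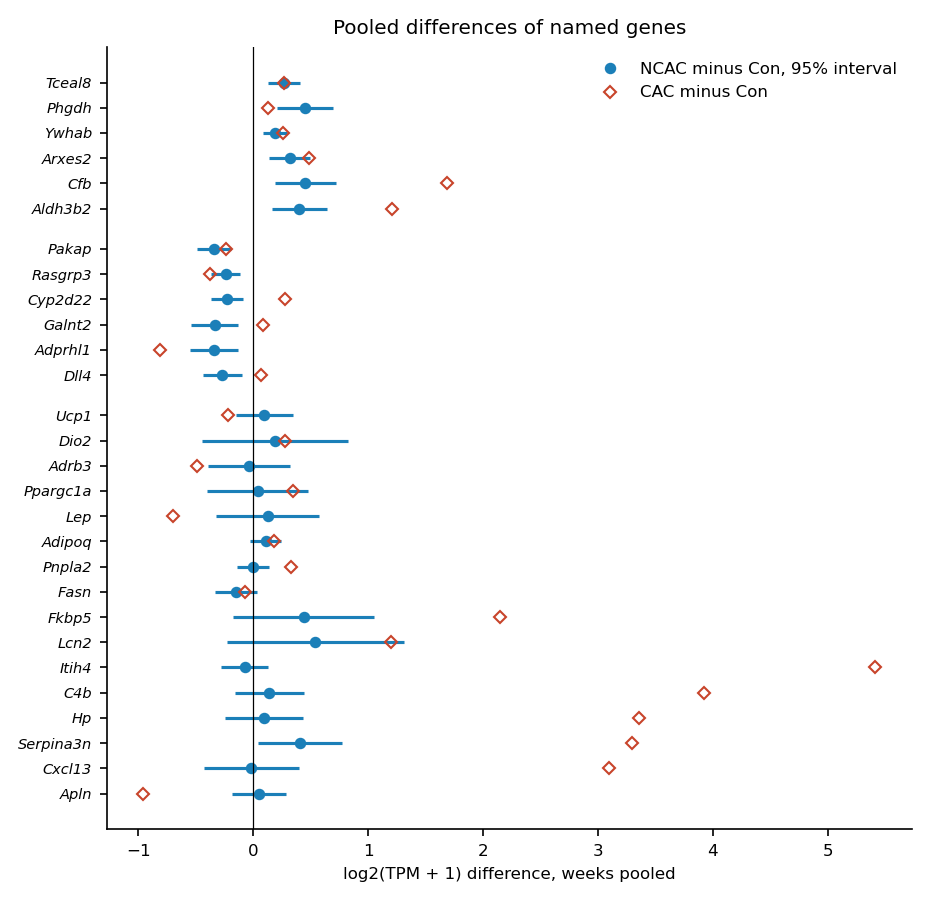
Pooled log2(TPM + 1) differences of named genes: circles with 95% intervals for NCAC minus Con (40 libraries) and open diamonds for CAC minus Con (62 libraries). The first 6 and the next 6 genes have the lowest p among those higher and lower in NCAC and were picked for it, so their distance from 0 is no result. Below them Itih4, C4b, Hp, Serpina3n and Cxcl13 show diamonds between 3.1 and 5.42. Their circles lie between -0.07 (Itih4) and 0.41 (Serpina3n), and of these genes only Serpina3n has an interval that excludes 0.

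The thermogenic genes of brown fat were at like levels in both arms. Ucp1 (chromosome 8, 83290352 to 83298452) averaged 6110 ± 2188 TPM in NCAC and 5573 ± 1521 TPM in Con (n = 20 each), a difference of 0.10 (SE 0.12, 95% interval -0.15 to 0.35). Its differences by week were 0.09, 0.06, 0.03 and 0.21 at 2, 4, 6 and 8 weeks. Dio2, which makes active thyroid hormone within the cell, had a wide interval of -0.44 to 0.82 around 0.19, and the coactivator Ppargc1a one of -0.40 to 0.48 around 0.04. None of the 28 tested genes for thermogenesis and brown adipocyte identity had even an unadjusted p under 0.05, and their median was -0.01. Adrb3, the receptor through which noradrenaline drives brown fat, differed by -0.03 (SE 0.18) over all weeks, but its weeks were unlike, at -0.80, -0.02, 0.91 and -0.23 (unadjusted p = 0.003 for variation with week, adjusted p = 0.204). At 2 weeks Adrb3 stood at 67.13, 122.3, 133.4, 164.3 and 186.2 TPM in Con and at 57.24, 73.06, 73.73, 78.23 and 83.35 TPM in NCAC. At 6 weeks it stood at 30.6, 58.18, 60.99, 61.24 and 82.79 TPM in Con and at 76.44, 96.17, 109.6, 121.3 and 137.5 TPM in NCAC. The higher arm was Con at 2 weeks and NCAC at 6 weeks, with the ranges overlapping at both.

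Nuclear genes of mitochondrial energy metabolism lay mostly on the lower side in NCAC with all 40 libraries, by small amounts. The hormone genes Igf1, Retn, Lep and Adipoq lay on the higher side. Of the 13 mitochondrially encoded genes 9 had a positive difference, with a median of 0.02. Of the 33 nuclear genes of the respiratory chain 6 had a positive difference, with a median of -0.05 and 0 at an unadjusted p under 0.05. Of the 17 tricarboxylic acid cycle genes 1 had a positive difference, with a median of -0.07 and 1 at an unadjusted p under 0.05. These counts depended on the scale. When mitochondrially encoded genes were removed, 13 of the 33 and 10 of the 17 were lower at that limit. At it stood 9.21% of all genes in either direction, against 4.93% on the deposited scale. After median-of-ratios rescaling 4 and 7 were lower, with 1185 of all genes (9.42%) at that limit in either direction, 495 of them higher. Without Con libraries 3 and 4 of 4 weeks 21 of the 33 had a positive difference, with a median of 0.01 beside 0.06 over all genes. Of the 17 then 4 did, with a median of -0.03. With rescaling as well it was 3 of the 33 and 1 of the 17, with 7 and 10 lower at that limit. At that limit then stood 1352 of all genes in either direction, 623 of them higher. Of the 13 mitochondrially encoded genes 0 had a positive difference without that pair, with or without rescaling. The pair was singled out by its low share of these genes. No gene of these lists was called in any of these fits. The lowest p of that cycle was that of Ogdh, a subunit of the oxoglutarate dehydrogenase, at -0.11 (SE 0.05, unadjusted p = 0.036). Fasn, the fatty acid synthase, differed by -0.15 (SE 0.09), and Mlxipl, which encodes the carbohydrate-responsive factor ChREBP, by -0.20 (SE 0.08, unadjusted p = 0.017). Acsl5, which activates fatty acids, differed by -0.24 (SE 0.09, unadjusted p = 0.012), and Abhd5, the activator of the lipase Pnpla2, by 0.26 (SE 0.09, unadjusted p = 0.0051). Pnpla2 itself had an interval of -0.14 to 0.14. Among secreted factors Igf1 differed by 0.36 (SE 0.11, unadjusted p = 0.0021) and resistin, Retn, by 0.49 (SE 0.18, unadjusted p = 0.0082), with 175 ± 64.1 TPM in NCAC and 126 ± 52.3 TPM in Con. Leptin, Lep, differed by 0.13 (SE 0.22) and adiponectin, Adipoq, by 0.11 (SE 0.07). The glucocorticoid-induced Fkbp5 differed by 0.44 (SE 0.30) and the iron-binding lipocalin Lcn2 by 0.54 (SE 0.38), and neither interval excluded 0. None of these genes passed adjustment over all 12581. All 28 tested genes of cytosolic ribosomal proteins were on the higher side, with a median of 0.11 beside 0.02 over all genes. At an unadjusted p under 0.05 stood 1 of them. Their medians by week were 0.13, -0.16, 0.22 and 0.29, beside all-gene medians of 0.00, -0.14, 0.11 and 0.07. After median-of-ratios rescaling 27 of the 28 were on the higher side. Of these genes 17 were higher at an unadjusted p under 0.05, beside 495 of all 12581. On the deposited scale the ribosomal count went from 1 to 26 without Con libraries 3 and 4 of 4 weeks, beside 381 and 1881 of all genes. Without 2 weeks it was 0, beside 170 of all genes. None of the 28 was called.

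**Figure D3:**
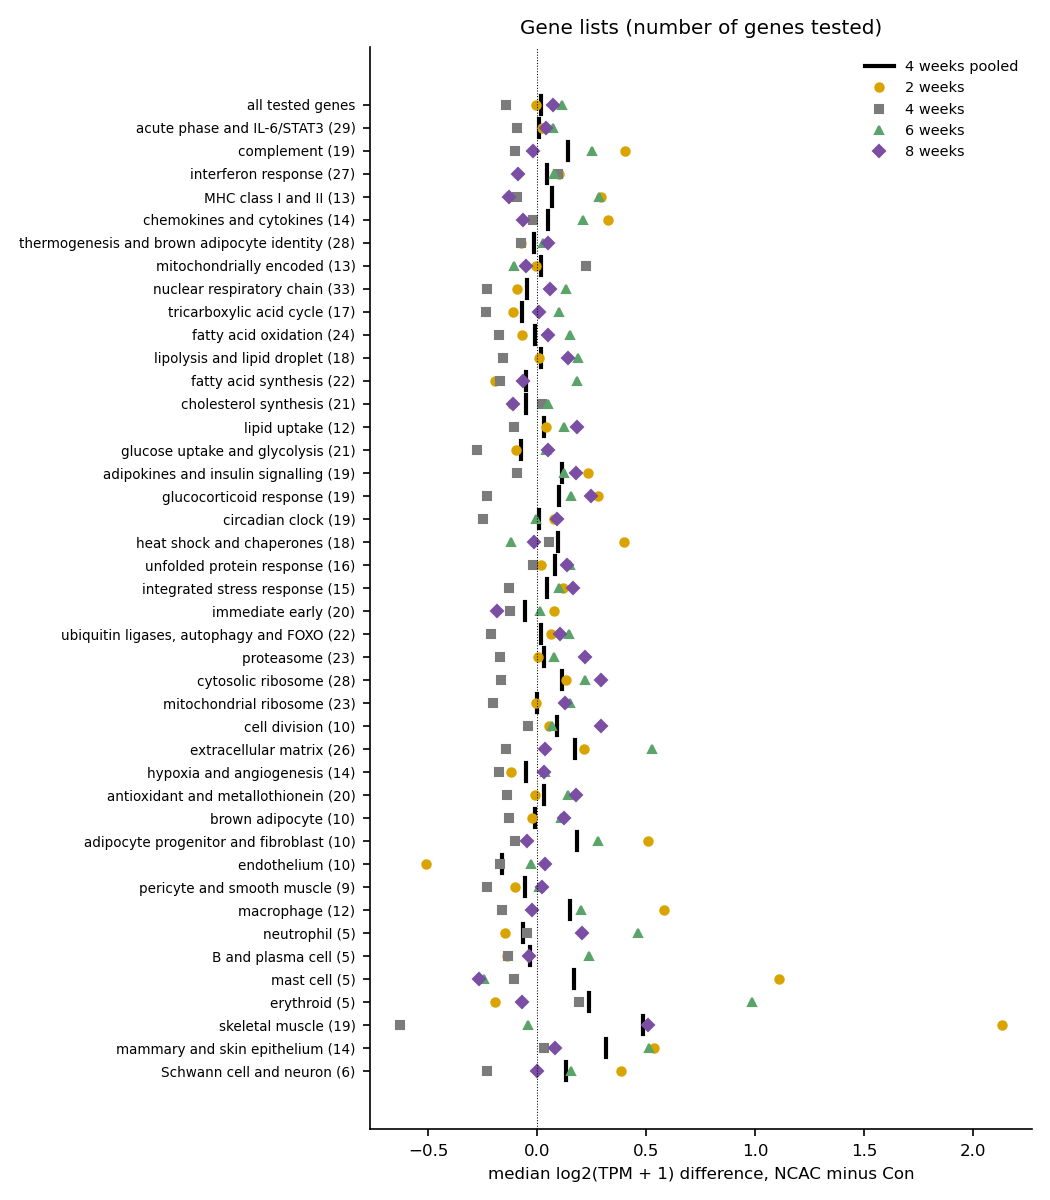
Median log2(TPM + 1) difference, NCAC minus Con, for each gene list with at least 5 tested genes: bars for the 4 weeks pooled, symbols for single weeks. The median of all genes is at the top (-0.14 at 4 weeks, 0.11 at 6 weeks), and at 2 weeks the skeletal muscle list has the highest median (2.13) and the endothelium list the lowest (-0.51).

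The genes of lowest p were small in size and failed adjustment. Pakap (chromosome 4, 57568179 to 57896982, a locus annotated across the neighbouring Palm2 and Akap2 genes, with which it shares reads) encodes an anchor protein for protein kinase A. It ran from 6.40 to 12.1 TPM in NCAC (median 7.76) and from 7.02 to 14.5 TPM in Con (median 10.2). The arms overlapped, with NCAC on the lower side in each of the 4 weeks, and the pooled difference was -0.34 (SE 0.07, unadjusted p = 3.13e-05, adjusted p = 0.394). The other 11 genes named by lowest p had an adjusted p of 0.913. Phgdh (chromosome 3, 98313170 to 98339990), which catalyses the first step of serine synthesis, ran from 5.11 to 14.8 TPM in NCAC (median 8.84) and from 3.50 to 10.3 TPM in Con (median 5.93). Its difference of 0.45 (SE 0.12) was made up of 0.92, 0.20, -0.05 and 0.74 by week. Psat1, the enzyme of the next step, averaged 4.74 ± 1.47 TPM in NCAC and 3.19 ± 1.49 TPM in Con, a difference of 0.48 (SE 0.13, unadjusted p = 0.00098). It was picked after its values were seen. Psph, the enzyme of the last step, differed by 0.02 (SE 0.06). Cfb, complement factor B of the alternative pathway (chromosome 17, 34856374 to 34862518), averaged 6.72 ± 2.15 TPM in NCAC and 4.67 ± 1.83 TPM in Con, a difference of 0.45 (SE 0.13) against 1.69 in CAC. At 2 weeks its Con libraries held 2.244, 3.041, 3.581, 3.81 and 5.004 TPM and its NCAC libraries 5.264, 7.655, 8.65, 8.738 and 10.64 TPM, which did not overlap. The 19 tested complement genes had a median of 0.14 with 2 of them at an unadjusted p under 0.05, both higher, beside 3.03% of all genes. Their medians by week were 0.40, -0.10, 0.25 and -0.02, and pooled without 2 weeks the median was 0.03 with 11 of 19 on the higher side. After rescaling 4 were higher at an unadjusted p under 0.05, beside 495 of 12581 genes, and with library weights 9, beside 1567.

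Among the remaining genes of lowest p, Tceal8 (0.27, SE 0.07), the phosphoserine-binding adaptor Ywhab (0.19, SE 0.05), Arxes2 (0.32, SE 0.09) and the aldehyde dehydrogenase Aldh3b2 (0.40, SE 0.12) were on the higher side in all 4 weeks on the deposited scale. Arxes2, a gene of adipocyte differentiation, has the near-identical neighbour Arxes1, so its value is uncertain. On the lower side were Rasgrp3, an exchange factor for Ras proteins (-0.24, SE 0.06), the cytochrome P450 gene Cyp2d22 (-0.23, SE 0.07), the glycosyltransferase Galnt2 (-0.33, SE 0.10), Adprhl1 (-0.34, SE 0.10) and the Notch ligand Dll4 (-0.27, SE 0.08). On the deposited scale Galnt2 was lower in 3 of 4 weeks and the other 4 in all 4 weeks. Over all genes 746 (5.93%) were higher in NCAC in all 4 weeks and 263 (2.09%) in none, and after median-of-ratios rescaling 828 and 921.

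Endothelial transcripts stood lower in NCAC than in Con at 2 weeks, with smaller differences later, though no endothelial marker passed the test. Brown fat is densely vascularised, and the lining cells of its vessels are marked by the adhesion protein Cdh5, the VEGF receptor Kdr and the angiopoietin receptors Tie1 and Tek. Kdr (chromosome 5, 75932827 to 75978458) stood at 36.78, 38.36, 38.96, 39.47 and 41.79 TPM in Con at 2 weeks and at 18.86, 21.85, 22.11, 24.96 and 25.15 TPM in NCAC. Cdh5 (chromosome 8, 104101625 to 104144511) stood at 57.11, 63.07, 64.81, 65.38 and 72.6 TPM in Con and at 39.11, 43.0, 43.63, 44.22 and 45.98 TPM in NCAC. For both genes every NCAC library lay below every Con library. The differences at 2 weeks were -0.77 (SE 0.17) for Kdr and -0.57 (SE 0.12) for Cdh5, each with an adjusted p of 0.129 in limma, short of the threshold. The tight-junction protein Cldn5 ranged from 15.04 to 46.27 TPM in Con and from 6.321 to 12.41 TPM in NCAC. Tie1, Tek, Egfl7 and Pecam1 were also lower in all NCAC libraries than in any Con library, Tie1 with 16.72 to 20.47 TPM in Con and 11.97 to 13.06 TPM in NCAC.

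Of the 10 endothelial markers 7 did not overlap at 2 weeks, all lower in NCAC, where 238 of 12581 genes (1.89%) did so in that direction. This list had the lowest 2-week median of the lists with at least 5 tested genes. Its markers can vary together within a library, so the 10 are not independent. At an unadjusted p under 0.05 also 7 of the 10 were lower, beside 529 of all genes (4.2%) lower and 544 (4.32%) higher at that week. The markers Emcn, Eng and Plvap overlapped. With the weeks pooled 6 of the 10 had an unadjusted p under 0.05 and were lower (1.9% of all genes were), none was called, and the list's median was -0.16. The medians by week were -0.51, -0.17, -0.03 and 0.04, beside all-gene medians of -0.004, -0.14, 0.11 and 0.07. Lower in NCAC were 9, 10, 6 and 4 of the 10, and none of the 10 was separated at 4, 6 or 8 weeks. Pooled without the 2-week libraries the median was -0.06, beside 0.02 over all genes. In that fit 1 of the 10 was on the higher side and 0 of 10 had a p under 0.05. After median-of-ratios rescaling Kdr, Cdh5, Tek and Cldn5 were called at 2 weeks, among 21 of 12581 genes called there. Without Con libraries 3 and 4 of 4 weeks Kdr and Cdh5 were called at 2 weeks, among 8 of 12581. When all 62 libraries shared 1 estimate of the spread no gene was called at 2 weeks. The 2-week gap stood beside a high Con level: the median of Cdh5 in Con was 64.8, 55.7, 47.0 and 40.6 TPM over the 4 weeks, while the NCAC medians were 43.6, 53.9, 45.1 and 42.6 TPM. In CAC at 2 weeks Cdh5 ranged from 42.9 to 77.1 TPM and Kdr from 22.6 to 36.0 TPM. In bulk tissue fewer cells of a type and less RNA per cell cannot be told apart.

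**Figure D4:**
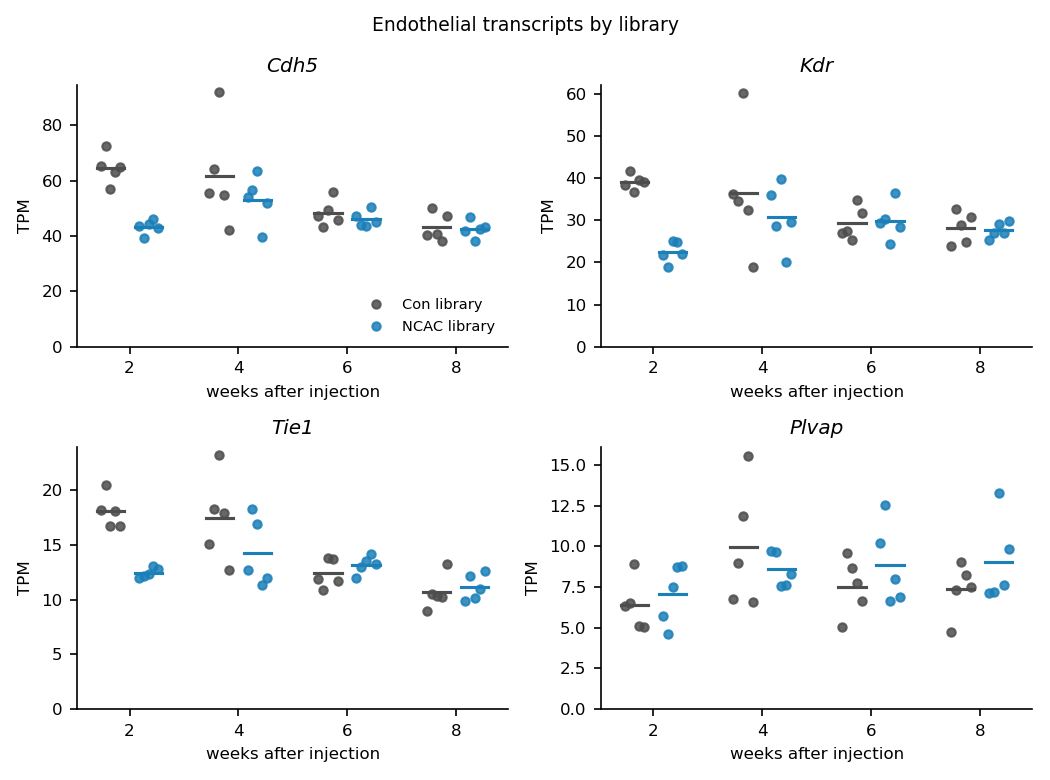
TPM of 4 endothelial transcripts in each Con and NCAC library by week, with the mean of each 5 libraries as a line. For Cdh5, Kdr and Tie1 the arms separate at 2 weeks and overlap later, and Plvap, between 4.60 and 15.6 TPM, overlaps throughout.

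Skeletal muscle markers stood higher in NCAC at the same week. Fat depots are dissected beside muscle, and the mean log2(TPM + 1) of 19 muscle markers at 2 weeks was 6.29 ± 0.95 in NCAC and 4.30 ± 1.42 in Con (n = 5 each), a difference of 1.99 (exact permutation test, 2-sided, p = 0.0317, adjusted over the 4 weeks 0.127). The ranges overlapped, at 4.87 to 7.19 and 2.23 to 6.19. Pooled, all 19 markers were on the higher side of the log2 scale with a median of 0.49 and none at an unadjusted p under 0.05. Without 2 weeks 1 of the 19 was on that side, with a median of -0.08. The mean TPM of the fast myosin light chain Mylpf went the other way, with 242 in NCAC and 295 in Con. The pooled difference of the marker mean was 0.42 (permutation test, p = 0.375, n = 20 each). With the muscle mean as a covariate, 5 of the 10 endothelial markers were lower at an unadjusted p under 0.05 in the pooled fit, with a list median of -0.15. In that fit 567 of all genes stood at that limit in either direction, 275 of them higher. At 2 weeks the covariate moved the list median from -0.51 to -0.42, the difference of Kdr from -0.77 to -0.62 and that of Cdh5 from -0.57 to -0.42 (adjusted p = 0.903 for both genes in limma). With it 0 of the 12581 genes were called at that week. Lower at an unadjusted p under 0.05 at 2 weeks were 7 of the 10 endothelial markers, both with and without the covariate. Without it 529 of all genes (4.2%) did so. With it the share over all genes is not at hand, so that count has no background. At 2 weeks macrophage markers also had a median difference of 0.58, fibroblast markers 0.51 and mast cell markers 1.11, and pooled 0.15, 0.18 and 0.17. No member of these 3 lists was called. The fibroblast and matrix gene Lum had the lowest p among them (0.31, SE 0.15, unadjusted p = 0.038). The part of these cell types in the endothelial values was not tested. Markers of T and NK cells were too low to test for 11 of 12 genes.

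**Figure D5:**
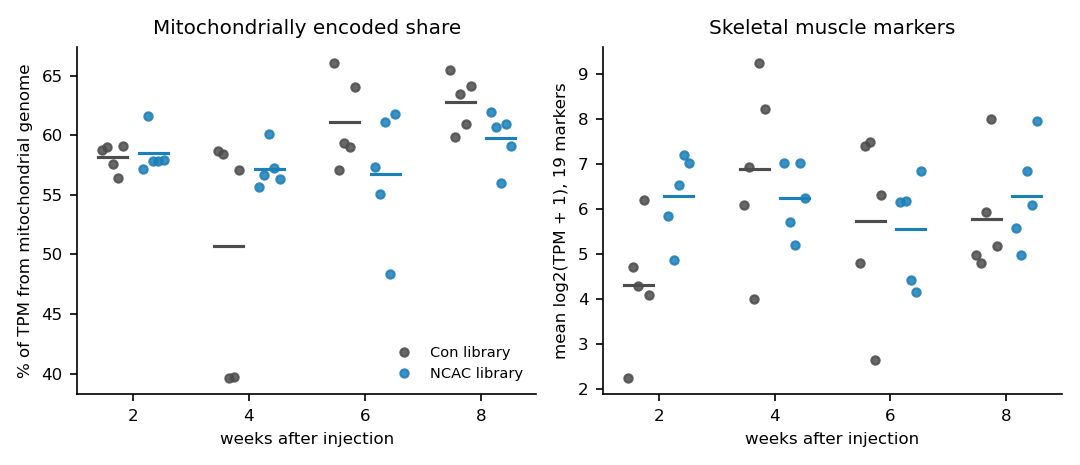
Share of TPM from the mitochondrial genome (left, %) and mean log2(TPM + 1) of 19 skeletal muscle markers (right) in each library by week, with group means as lines. A pair of Con libraries at 4 weeks lies near 39.6%, and the muscle mean at 2 weeks is 4.30 in Con and 6.29 in NCAC.

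Single weeks added 4 called genes, none shared between weeks. At 2 weeks 3 genes (0.0238%) were called. Bmp3, a member of the bone morphogenetic protein family (chromosome 5, 98854415 to 98884396), stood at 0.3485, 0.3679, 0.3799, 0.389 and 0.4196 TPM in Con and at 0.67, 0.91, 1.11, 1.165 and 1.406 TPM in NCAC. The arms did not overlap, and Bmp3 rose by 0.56 (SE 0.10, adjusted p = 0.0188). Vwa3a (chromosome 7, 120739318 to 120805742) stood at 2.788, 2.801, 2.975, 3.278 and 3.804 TPM in Con and at 1.343, 1.449, 1.488, 1.561 and 1.757 TPM in NCAC, and fell by 0.71 (SE 0.13, adjusted p = 0.0268). Plekhg1 (chromosome 10, 3740364 to 3967303) stood at 1.826, 2.127, 2.295, 2.307 and 2.679 TPM in Con and at 0.7578, 1.006, 1.018, 1.093 and 1.349 TPM in NCAC, and fell by 0.67 (SE 0.12, adjusted p = 0.0188). All 3 sit at low levels, and their pooled differences were 0.21, -0.26 and -0.15. None of the 3 was called in the fit of all 62 libraries (lowest adjusted p 0.170) or with the muscle covariate, and none when NCAC library 1, 3 or 5 or Con library 1, 2 or 3 of 2 weeks was left out. At 4 weeks 1 gene (0.00795%) was called, the pseudogene Gm7293 (chromosome 9, 51622745 to 51623751), whose reads may belong to its parent gene. It stood at 7.49, 10, 12.42, 17.52 and 18.64 TPM in Con and at 4.815, 5.814, 5.997, 6.215 and 6.717 TPM in NCAC, and fell by 0.98 (SE 0.17, adjusted p = 0.0137). The call ended when Con libraries 3 and 4 of that week were left out. At 6 and 8 weeks 0 genes (0%) were called in limma, with 1147 and 526 at an unadjusted p under 0.05.

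The weeks gave unlike differences over all genes. The median of all genes was 0.00, -0.14, 0.11 and 0.07 at the 4 weeks. The test of variation with week called 0 of 12581 genes (0%) at a lowest adjusted p of 0.199, while 2113 (16.8%) had an unadjusted p under 0.05. The genes of lowest p in that test were the mitochondrial deacetylase Sirt3, Adck1, the lipid droplet protein Plin5, Gigyf1 and Arhgef40. Sirt3 differed by -0.17, -0.31, 0.19 and 0.09 over the weeks, and Plin5 by -0.07, -0.47, 0.27 and 0.27, on the lower side at 4 weeks and the higher side at 6 weeks as the all-gene medians were. The 4-week values rest on the Con group that held the pair of libraries standing apart. A fit to 3 weeks at a time called 0 genes in each of the 4 cases. Such fits and the week left out also differ in the median of all genes, so signs were compared after median-of-ratios rescaling, which brought the weekly medians to between -0.01 and 0.00. The difference in the week left out then had the sign of the other 3 for 58.3%, 48.9%, 47.2% and 52.4% of all genes, for 2, 4, 6 and 8 weeks left out. Among genes with an unadjusted p under 0.05 in the 3 weeks it did so for 348 of 446, 653 of 1261, 753 of 1609 and 708 of 1266. On the deposited scale the all-gene values were 55.6%, 30.1%, 41.4% and 47.0%. The rescaled fit without 4 weeks called 2 genes, Rasgrp3 (-0.34, SE 0.06, adjusted p = 0.0229) and Slfn5 (-0.27, SE 0.05, adjusted p = 0.0311), whose rescaled differences at 4 weeks were 0.02 and 0.02.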

How the data were processed

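Stranded mRNA libraries of brown adipose tissue were sequenced on an Illumina NovaSeq instrument, per the labels' protocols, and the genome build is mm10, per the submitters' processing notes. The aligner and counter are not given in the sources used here. The authors deposited TPM for 47643 gene symbols. Columns share 1 fixed total, and read depth is unknown. The 12581 genes that reached 1 TPM in 5 or more of the 62 libraries were kept. log2(TPM + 1) was fitted with limma 3.58.1 (R 4.3.3, trended empirical Bayes) with week and arm as terms over the 40 NCAC and Con libraries. Single weeks and variation with week came from 8 group means. The CAC values came from 12 group means over 62 libraries. Called genes had a p under 0.05 after Benjamini-Hochberg adjustment. Shares and marker means were compared with permutation tests within weeks. Named genes were the 6 of lowest p in each direction with a mean of at least 5 TPM, 5 of lowest p for variation with week, the lowest p of each list described, the genes called at a single week, and 16 fixed genes. The members and all 49 gene lists were chosen with earlier results of these data known. Scripts were tested on simulated data. Positions are from GENCODE M21. Alternatives were another pseudocount, filters, rescaling, quantile normalization, library weights, a muscle covariate, a replicate block and leaving out libraries or weeks. Chosen after seeing the data were rescaling together with leaving out Con libraries 3 and 4 of 4 weeks, rescaling for signs over weeks, and the muscle covariate at 2 weeks.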

Additional observations from a re-analysis of the deposited data

Results flagged for a closer look

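Of 104 groups of 5 libraries examined for a library far from the other 4, 3 were marked, and chance marks about 1 in 20. NCAC library 2 of 2 weeks held 61.65% of TPM from the mitochondrial genome, where the other 4 held 57.21% to 57.94%. Con library 2 of 6 weeks held 1.036 TPM of Bmp3, where the other 4 held 0.5573 to 0.6779 TPM. NCAC library 4 of 6 weeks held 156.6 TPM of Plin5, where the other 4 held 136.6 to 142.1 TPM.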

How the results depend on the processing

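The count of 0 called genes over all weeks held under every alternative run except library weights, which called 1 gene, Pakap (-0.37, adjusted p = 0.0322), and rescaling without week 4, which called 2 (Rasgrp3 and Slfn5). Leaving out each of the 40 libraries in turn gave 0 to 0 calls, with a lowest adjusted p between 0.105 and 0.871. Genes at an unadjusted p under 0.05 numbered 620 as reported, 1185 after rescaling, 1234 after quantile normalization, 1158 without mitochondrially encoded genes, 2023 with library weights, 1992 without Con libraries 3 and 4 of 4 weeks, and 230, 1775, 1016 and 686 without weeks 2, 4, 6 and 8. At 2 weeks the 3 calls became 21 after median-of-ratios rescaling, 0 in the fit of all 62 libraries, 8 without Con libraries 3 and 4 of 4 weeks, 29 with both changes, and 0 to 12 when leaving out each library. At 4 weeks the 1 call became 5 after rescaling, 0 without those Con libraries with or without rescaling, and 0 to 792 when leaving out each library (792 without Con library 5 of 4 weeks, 112 without Con library 2). The count of genes varying with week was 0 to 84 when leaving out each library (84 without Con library 5 of 4 weeks). The mitochondrial share difference was -1.99 percentage points without Con libraries 3 and 4 and -0.84 to 0.38 when leaving out each library. The cause of these moves was not tested. Over 83 named genes and 57 settings, 105 of 4721 values changed sign, in 15 genes, none of them called with the weeks pooled. Same-numbered NCAC and Con libraries did not vary together (20 pairs, correlation of deviations -0.26 to 0.48, median 0.00, 7 over 0.1), and the fit with the replicate number as a block called 0 genes, lowest adjusted p 0.998.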

Other observations

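A few genes sat at 2 separate levels across libraries of every arm, and these were picked after their values were seen. Cwc22, a splicing factor (chromosome 2, 77881159 to 77946375), was either between 2.95 and 6.71 TPM or between 43.4 and 137 TPM. It was high in 8 of 20 NCAC, 1 of 20 Con and 5 of 22 CAC libraries. Its pooled difference of 1.41 (SE 0.46, adjusted p = 0.913) was the largest of any gene with a mean of at least 5 TPM and no predicted name. The predicted genes Gm13696, Gm13697, Gm13698 and Gm13691, on the same chromosome, were high in 8, 1 and 5 libraries as well. H2-Q10, a class I histocompatibility gene, was at most 1.83 TPM or at least 32.3 TPM in the NCAC and Con libraries, and high in 10 of 20 NCAC, 13 of 20 Con and 13 of 22 CAC libraries.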
